A study of Mus musculus with 18 samples.

Results

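In peritoneal macrophages, the presence of an intraperitoneal tumor went with a change in how far 2 sorted populations, Tim-4low and Tim-4high, differed from each other at 587 of 16609 genes tested. The contrast set the Tim-4low over Tim-4high ratio of each gene in tumor-bearing mice against the same ratio in mice without a tumor. It used 12 of the 18 libraries of the series, 3 for each population in each condition, and the 6 libraries of mice given anti-Tim-4 were outside it and helped to estimate the spread. Tim-4 is a phosphatidylserine receptor encoded by Timd4. The isotype mice carried MC38-LG, a tumor growing in the peritoneal cavity and derived from the mouse colon carcinoma line MC38, and were labelled as given an isotype antibody. The no-tumor mice had neither tumor nor antibody and were harvested on the same day, day 10 after tumor challenge. Tumor and isotype antibody are therefore joined in the contrast and cannot be told apart. The sources used here do not give strain, age, sex, the day of the isotype injection or the number of mice behind a library. The 3 libraries of a group are not stated to be separate animals. P-values therefore measure the spread among these libraries alone, and that spread may be technical.

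Tim-4 on peritoneal macrophages marks cells of long residence in the cavity, the large macrophages that depend on the transcription factor Gata6 and carry little MHC class II. Smaller macrophages that descend more recently from monocytes carry more MHC class II and little or no Tim-4, and some of them take on the resident phenotype with time. When the cavity is inflamed, resident cells may be lost or activated and new monocytes enter. In bulk RNA, fewer cells of a type and less RNA per cell cannot be told apart, and a ratio between populations can move through either one.

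Libraries held between 24530070 and 34110392 estimated counts, and levels are given as CPM, counts scaled to a total of 1000000 per library, for libraries 1, 2 and 3 of a group in that order. The sort is visible in Timd4 itself. For Timd4 the isotype libraries held 14.5, 10.99 and 75.4 CPM (Tim-4low) and 319.5, 294 and 280.4 CPM (Tim-4high), and the no-tumor libraries held 109, 9.52 and 9.13 CPM (Tim-4low) and 886, 680.3 and 622 CPM (Tim-4high). Tim-4high libraries exceeded Tim-4low ones in both conditions, and the ratio difference was not called (log2 difference 0.96 ± 1.11 (adjusted p = 0.742)). The value rests on isotype Tim-4low 3 and no-tumor Tim-4low 1, which lay above the other Tim-4low libraries, and it stood at -0.44 without isotype Tim-4low 3, 3.15 without no-tumor Tim-4low 1, an omission in which it was called (adjusted p = 0.044). The 8 macrophage markers summed to 17390 to 18630 CPM in isotype Tim-4low, 21400 to 22620 CPM in isotype Tim-4high, 26420 to 29320 CPM in no-tumor Tim-4low and 36420 to 45080 CPM in no-tumor Tim-4high libraries. Both no-tumor libraries 1 had the most B cell marker RNA, 1754 CPM (Tim-4low) and 521 CPM (Tim-4high) over 12 markers, against 141 to 243 CPM in the other no-tumor libraries and 8.44 to 84.4 CPM in isotype libraries. Both isotype libraries 3 had the most T cell marker RNA, 130.2 CPM (Tim-4low) and 121 CPM (Tim-4high) over 12 markers, against 16.9 to 27.8 CPM in the other isotype libraries and 4.87 to 25.6 CPM in no-tumor libraries. Results are therefore also given without these pairs.

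Against no-tumor mice, isotype mice had a higher population ratio for 220 genes (1.32% of those tested) and a lower one for 367 (2.21%), together 3.53%, by edgeR's quasi-likelihood test at a Benjamini-Hochberg adjusted p under 0.05. Values below are log2 differences, the log2 ratio in isotype mice minus the log2 ratio in no-tumor mice, ± SE. Among the 587 genes, 289 differed by more than 2-fold and 97 by more than 4-fold. Within a condition, same-numbered libraries of both populations deviated together from their group means, and with that number as a block 1858 genes passed (765 higher, 4.61%, and 1093 lower, 6.58%), including 585 of the 587. Single omissions of a library, each of which left its same-numbered partner in a fit without a block, gave 321 to 889 genes. Leaving out both isotype libraries 3 gave 264 genes, and leaving out both no-tumor libraries 1 gave 911. With RLE factors, no filter, robust estimation, DESeq2, the 12 libraries alone, both blocked fits and each single omission, 96 of the higher and 162 of the lower genes passed every time. The ratios of the 3 library numbers did not overlap between conditions for 585 of the 587, against 30.4% of all genes tested. The call used the same libraries, so this separation follows from it and is no further support. Just inside the threshold lay Ivd (-0.47 ± 0.12, adjusted p = 0.0496) and Rusc1 (-0.52 ± 0.14, adjusted p = 0.0499), and just outside it Fcrlb (-4.31 ± 1.14, adjusted p = 0.0501) and Smim3 (0.81 ± 0.21, adjusted p = 0.0503).

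**Figure D1:**
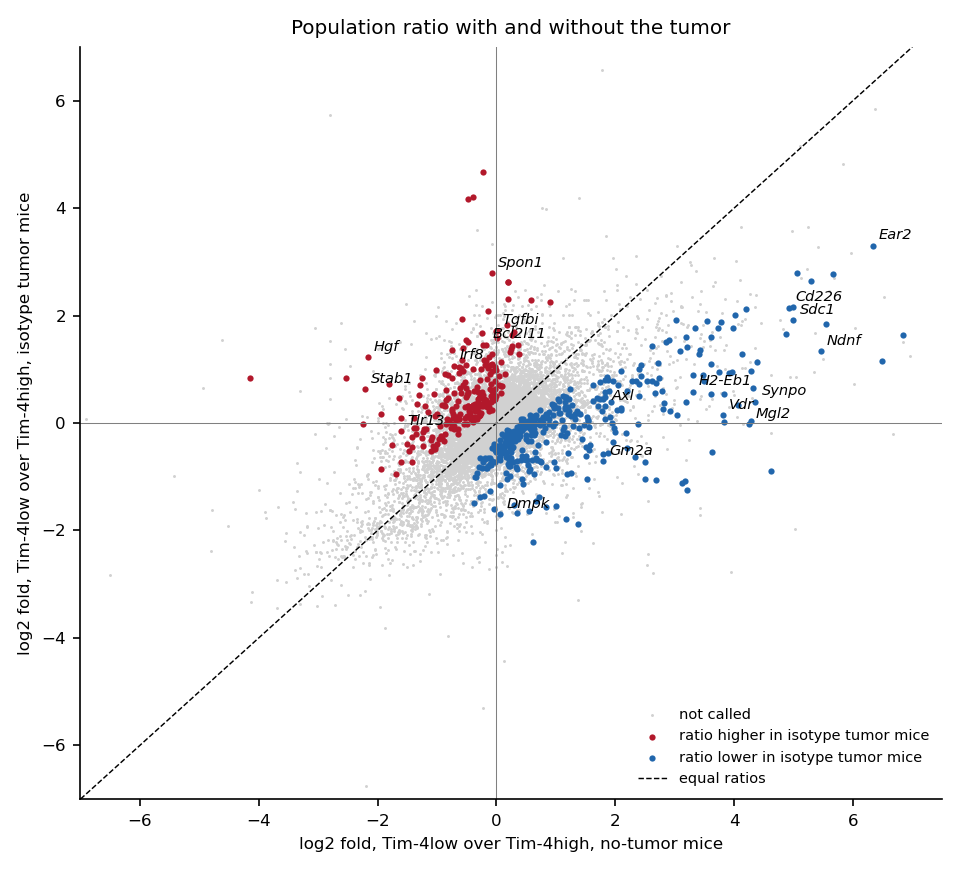
Log2 Tim-4low over Tim-4high ratio of each tested gene in no-tumor mice (x axis) and isotype tumor mice (y axis), with genes whose ratio was higher (red, 220) or lower (blue, 367) in isotype mice and the dashed line of equal ratios. Most blue genes stand to the right of 0 and near 0 on the y axis.

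Most of the 367 lower genes were ones that the populations no longer, or less, distinguished in isotype mice. Of these, 165 were not called between populations in isotype mice and were higher in Tim-4low cells in no-tumor mice, and 71 were higher in Tim-4low cells in both conditions. In 32 the populations changed places, being lower in Tim-4low cells in isotype mice and higher in no-tumor mice, and 93 were lower in Tim-4low cells in isotype mice and not called in no-tumor mice. Their median log2 ratio was -0.12 in isotype mice and 0.75 in no-tumor mice, against 0.01 and 0.02 for all genes tested. Of the 220 higher genes, 85 were not called between populations in isotype mice and were lower in Tim-4low cells in no-tumor mice, 91 were higher in Tim-4low cells in isotype mice and not called in no-tumor mice, and 25 changed places. Their median log2 ratio was 0.43 in isotype mice and -0.47 in no-tumor mice. A call in one condition and none in the other is here only a label for the shape, since the difference between conditions is what was tested. Over all genes, 24.1% were called between populations in isotype mice and 24.6% in no-tumor mice.

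The same genes can be sorted by which population moved. Isotype tumor over no tumor was called for 49.8% of all genes in Tim-4low cells and 51.5% in Tim-4high cells. For the 367 lower genes, 99 rose in Tim-4high cells with no call in Tim-4low cells, 95 fell in Tim-4low cells with no call in Tim-4high cells, and 49 did both. In 89 both populations rose, and in 35 both fell, by unequal amounts. For the 220 higher genes, 65 rose in Tim-4low cells with no call in Tim-4high cells, 53 fell in Tim-4high cells with no call in Tim-4low cells, and 26 did both. In 45 both rose and in 31 both fell.

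Genes of MHC class II antigen presentation separated the populations less in isotype mice. MHC class II molecules show peptides on the cell surface to CD4 T cells. Their chains are encoded by H2-Aa, H2-Ab1 and H2-Eb1, Cd74 encodes the invariant chain that escorts them, and H2-DMa and H2-DMb1 encode the chaperone that loads peptide. All 6 had lower ratios in isotype mice, and no member of the 16-gene list had a higher one. Of these 6 genes, 4 had an entry in the RefSeq table (GRCm38.p6, 250 bases before to 50 after the start). The windows of 3 hold the X or Y box letters of MHC class II promoters and are shown. H2-DMa, which also had a lower ratio, holds neither in its windows. Any part of these letters in the result was not tested. Capitals mark ACTGATG, letters within the X box, and TGATTGG, letters of the Y box, searched on both strands. Of 32851 such windows in the table, 3.19% hold the X letters and 7.82% the Y letters, which were chosen after these windows had been seen.
H2-Eb1, chr17:34305617-34305916, plus strand: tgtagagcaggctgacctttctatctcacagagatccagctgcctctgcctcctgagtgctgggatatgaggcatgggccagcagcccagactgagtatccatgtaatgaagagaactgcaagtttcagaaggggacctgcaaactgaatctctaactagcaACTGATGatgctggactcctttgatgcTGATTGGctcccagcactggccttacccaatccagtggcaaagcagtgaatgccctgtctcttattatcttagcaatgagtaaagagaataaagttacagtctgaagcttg
H2-DMb1, chr17:34152941-34153240, plus strand: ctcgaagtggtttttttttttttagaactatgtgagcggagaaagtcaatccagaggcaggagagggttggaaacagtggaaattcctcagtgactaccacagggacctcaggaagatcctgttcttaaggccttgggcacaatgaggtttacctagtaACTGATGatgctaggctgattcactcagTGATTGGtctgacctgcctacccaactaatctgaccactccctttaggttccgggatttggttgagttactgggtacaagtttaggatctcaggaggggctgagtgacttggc
H2-Aa, chr17:34287774-34288073, minus strand: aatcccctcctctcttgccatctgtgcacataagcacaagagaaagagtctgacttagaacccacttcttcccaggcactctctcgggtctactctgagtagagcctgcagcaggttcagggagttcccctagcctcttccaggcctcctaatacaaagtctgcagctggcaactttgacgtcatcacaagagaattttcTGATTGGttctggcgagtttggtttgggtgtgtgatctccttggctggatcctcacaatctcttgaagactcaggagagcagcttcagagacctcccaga

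H2-Eb1 was at 2639, 2570.3 and 2709.9 CPM in isotype Tim-4low libraries and 1594, 1684 and 1995 CPM in isotype Tim-4high libraries, against 2992, 3329 and 4205 CPM in no-tumor Tim-4low and 233, 718 and 115 CPM in no-tumor Tim-4high libraries. The isotype populations lay close together, with Tim-4low still above Tim-4high, and the wide gap of no-tumor mice came from low Tim-4high values, of which library 2 was the highest. In Tim-4high cells H2-Eb1 rose by 2.31 ± 0.43 (adjusted p = 0.000361) in isotype over no-tumor mice, and in Tim-4low cells it stood at -0.41 ± 0.41 (adjusted p = 0.426). For Cd74 the isotype libraries held 7328, 6995 and 7599 CPM (Tim-4low) and 5274, 5209 and 6340.1 CPM (Tim-4high), and the no-tumor libraries held 7324, 7594 and 9252 CPM (Tim-4low) and 659, 2365 and 395 CPM (Tim-4high). As for H2-Eb1, no-tumor Tim-4high 2 stood above its 2 partners. H2-DMb1 was at 386, 399.8 and 358 CPM in isotype Tim-4low libraries and 245, 274 and 289.8 CPM in isotype Tim-4high libraries, against 265, 337 and 445 CPM in no-tumor Tim-4low and 39.6, 123 and 36.7 CPM in no-tumor Tim-4high libraries. The ratio differences were -2.72 ± 0.59 (adjusted p = 0.0184) for H2-Eb1, -2.68 ± 0.63 (adjusted p = 0.0285) for H2-Aa and -2.55 ± 0.67 (adjusted p = 0.0467) for H2-Ab1. They were -2.44 ± 0.59 (adjusted p = 0.0335) for Cd74, -1.89 ± 0.46 (adjusted p = 0.0344) for H2-DMb1 and -1.75 ± 0.46 (adjusted p = 0.0476) for H2-DMa. With the block the highest adjusted p of the 6 was 0.00552. All 6 lost their call in some omission: 9 of 12 omissions kept H2-Eb1, 5 of 12 omissions kept H2-Aa, 3 of 12 omissions kept Cd74, 3 of 12 omissions kept H2-DMb1, 1 of 12 omissions kept H2-Ab1, 2 of 12 omissions kept H2-DMa, with adjusted p up to 0.128. Without no-tumor Tim-4high 2 the differences ran from -3.91 (H2-Aa) to -2.56 (H2-DMa). Over the list the median difference was -1.49, against -0.02 for all genes tested, and the block added H2-DMb2 and H2-Oa. B cells and dendritic cells also carry these genes. In no-tumor Tim-4high libraries 1, 2 and 3 the B cell markers summed to 521, 141 and 161 CPM and the dendritic cell markers to 231, 183 and 157 CPM. Their part in the result was not tested. The 18 tested MHC class I and peptide loading genes gave 0 calls by edgeR, with or without the block, and by DESeq2, and 0 at an unadjusted p under 0.05, with a median of -0.07.

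Genes known from small or recruited peritoneal macrophages had lower ratios in 8 of 20 tested (12 with the block) and a higher ratio in none, with a median difference of -1.06. The 8 were Cd226, Csf2rb, Ear2, Il1rl2, Irf4, Itgax, Lsp1 and Napsa. They did not move alike. Cd226 encodes a receptor for ligands of the nectin type. For Cd226 the isotype libraries held 37.9, 22.3 and 22.4 CPM (Tim-4low) and 4.45, 6.30 and 7.85 CPM (Tim-4high), and the no-tumor libraries held 81.3, 107 and 131 CPM (Tim-4low) and 5.34, 2.41 and 2.75 CPM (Tim-4high). All Tim-4low libraries stood above all Tim-4high libraries, but the isotype gap was narrower, and the difference was -2.77 ± 0.40 (adjusted p = 0.00159). Cd226 fell in Tim-4low cells (log2 change -1.95 ± 0.26, adjusted p = 2.27e-05) and rose in Tim-4high cells by 0.82 ± 0.31 (adjusted p = 0.0374). Irf4 encodes a transcription factor of MHC class II-rich small macrophages and dendritic cells. Irf4 was at 27.7, 17.99 and 17.4 CPM in isotype Tim-4low libraries and 21.2, 16.5 and 18.2 CPM in isotype Tim-4high libraries, against 161, 142 and 158 CPM in no-tumor Tim-4low and 73.9, 46.8 and 62.6 CPM in no-tumor Tim-4high libraries. It was low in all isotype libraries, which overlapped between populations, and its difference was -1.16 ± 0.26 (adjusted p = 0.0219). For Irf4, 8 of the 12 omissions kept the call (highest adjusted p = 0.0627, without isotype Tim-4low 2).

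Il1rl2, which encodes the IL-36 receptor, moved the other way. For Il1rl2 the isotype libraries held 12.4, 16.1 and 12.2 CPM (Tim-4low) and 7.64, 11.1 and 9.16 CPM (Tim-4high), and the no-tumor libraries held 3.94, 4.73 and 5.46 CPM (Tim-4low) and 0.710, 0.237 and 0.189 CPM (Tim-4high). No-tumor Tim-4high libraries were the lowest, below every other library, and both populations rose in isotype mice, Tim-4high by 4.59 ± 0.30 (adjusted p = 2e-08) and Tim-4low by 1.52 ± 0.23 (adjusted p = 5.3e-05). Its ratio difference was -3.07 ± 0.38 (adjusted p = 0.000628), and -3.89 without no-tumor Tim-4high 1. Csf2rb encodes the shared beta chain of the receptors for GM-CSF and related cytokines. Csf2rb was at 457, 464 and 506 CPM in isotype Tim-4low libraries and 739, 755 and 793 CPM in isotype Tim-4high libraries, against 252, 209 and 237 CPM in no-tumor Tim-4low and 247, 225 and 196 CPM in no-tumor Tim-4high libraries. The no-tumor populations overlapped, every isotype Tim-4high library lay above every isotype Tim-4low one, and the difference was -0.74 ± 0.16 (adjusted p = 0.016). Itgax, the integrin subunit CD11c, differed by -3.24 ± 0.81 (adjusted p = 0.0386). That call was kept in 5 of 12 omissions, and the value was -2.20 without isotype Tim-4high 3, -4.31 without no-tumor Tim-4high 1. Isotype libraries 3 had the highest Itgax of their groups, 24.2 CPM (Tim-4low) and 15.3 CPM (Tim-4high), and also the highest sums of dendritic cell markers, 227 and 222 CPM. Whether those cells account for the value was not tested. Ear2, an eosinophil-associated ribonuclease with near-identical copies whose counts are uncertain, differed by -3.04 ± 0.70 (adjusted p = 0.0246), and -4.06 without no-tumor Tim-4high 1. For Ear2, 5 of 12 omissions kept the call, and with the block over the 12 libraries alone it was lost (adjusted p = 0.062). Lsp1, an actin-binding leukocyte protein, differed by -0.76 ± 0.13 (adjusted p = 0.00494). Of 22 tested genes of large resident macrophages, 1 was called (Hgf, higher), or 4.55%, near the 3.53% over all genes. The list's median was 0.23.

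C-type lectins, pattern-recognition receptors for sugars, were listed together with receptors of the CD300 family, and the list split by gene. Of 22 tested, 4 had lower ratios (Mgl2, Cd209a, Cd209d, Clec4a2) and 2 higher (Clec5a and the phosphatidylserine receptor gene Cd300a), and with the block 8 and 3. Cd209c, described below, was outside this list. Mgl2 (chr11:70130329-70137550, mm10) encodes the galactose-type lectin CD301b and had one of the largest differences of all genes the naming rule took. For Mgl2 the isotype libraries held 38.5, 34.3 and 40.4 CPM (Tim-4low) and 30.004, 49.1 and 36.2 CPM (Tim-4high), and the no-tumor libraries held 82.1, 105 and 202 CPM (Tim-4low) and 11.6, 4.18 and 4.49 CPM (Tim-4high). In isotype mice the populations overlapped, while without a tumor every Tim-4low library exceeded every Tim-4high one. Mgl2 fell in Tim-4low cells (log2 change -1.78 ± 0.47, adjusted p = 0.00518) and rose in Tim-4high cells by 2.50 ± 0.51 (adjusted p = 0.000747), giving -4.28 ± 0.69 (adjusted p = 0.00317), or -4.91 without no-tumor Tim-4high 1. Of the DC-SIGN family, Cd209a fell in both populations. Cd209a was at 2.12, 1.70 and 6.62 CPM in isotype Tim-4low libraries and 3.61, 3.51 and 9.09 CPM in isotype Tim-4high libraries, against 62.7, 61.7 and 139 CPM in no-tumor Tim-4low and 24.8, 13.5 and 14.1 CPM in no-tumor Tim-4high libraries. All isotype libraries lay below all no-tumor libraries. Cd209a differed by -2.96 ± 0.77 (adjusted p = 0.0461), Cd209c by -4.25 ± 1.01 (adjusted p = 0.029) and Cd209d by -4.24 ± 1.04 (adjusted p = 0.0346), with 4, 6 and 5 of 12 omissions keeping the call. Without isotype Tim-4high 3 the values were -2.35 for Cd209a and -2.88 for Cd209c. Isotype libraries held only 0.0362 to 0.770 CPM of Cd209c and 0.0634 to 0.462 CPM of Cd209d. Cd209d had a mean of 4.92 CPM in its highest group, no-tumor Tim-4low. The isotype ratios of Cd209c and Cd209d thus rest on few counts, and the size of their differences is uncertain. The Cd209 copies resemble each other closely, so their counts are uncertain as well. For Clec5a the isotype libraries held 31.1, 41.7 and 36.1 CPM (Tim-4low) and 16.8, 19.8 and 21.2 CPM (Tim-4high), and the no-tumor libraries held 7.67, 13.9 and 10.8 CPM (Tim-4low) and 13.1, 22.5 and 23.5 CPM (Tim-4high). Clec5a, an activating receptor of myeloid cells, was higher in isotype Tim-4low than in any other group and differed by 1.78 ± 0.29 (adjusted p = 0.00338).

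Among 22 tested genes of alternative activation, the macrophage state driven by IL-4 and IL-13, 3 had lower ratios, all of them lectins named above, and none a higher one. The list's median was -0.88, and the block called 11 lower, adding Ccl17, Ccl22, Ccl24, Chil3, Clec10a, Egr2, Retnla and Socs2.

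**Figure D2:**
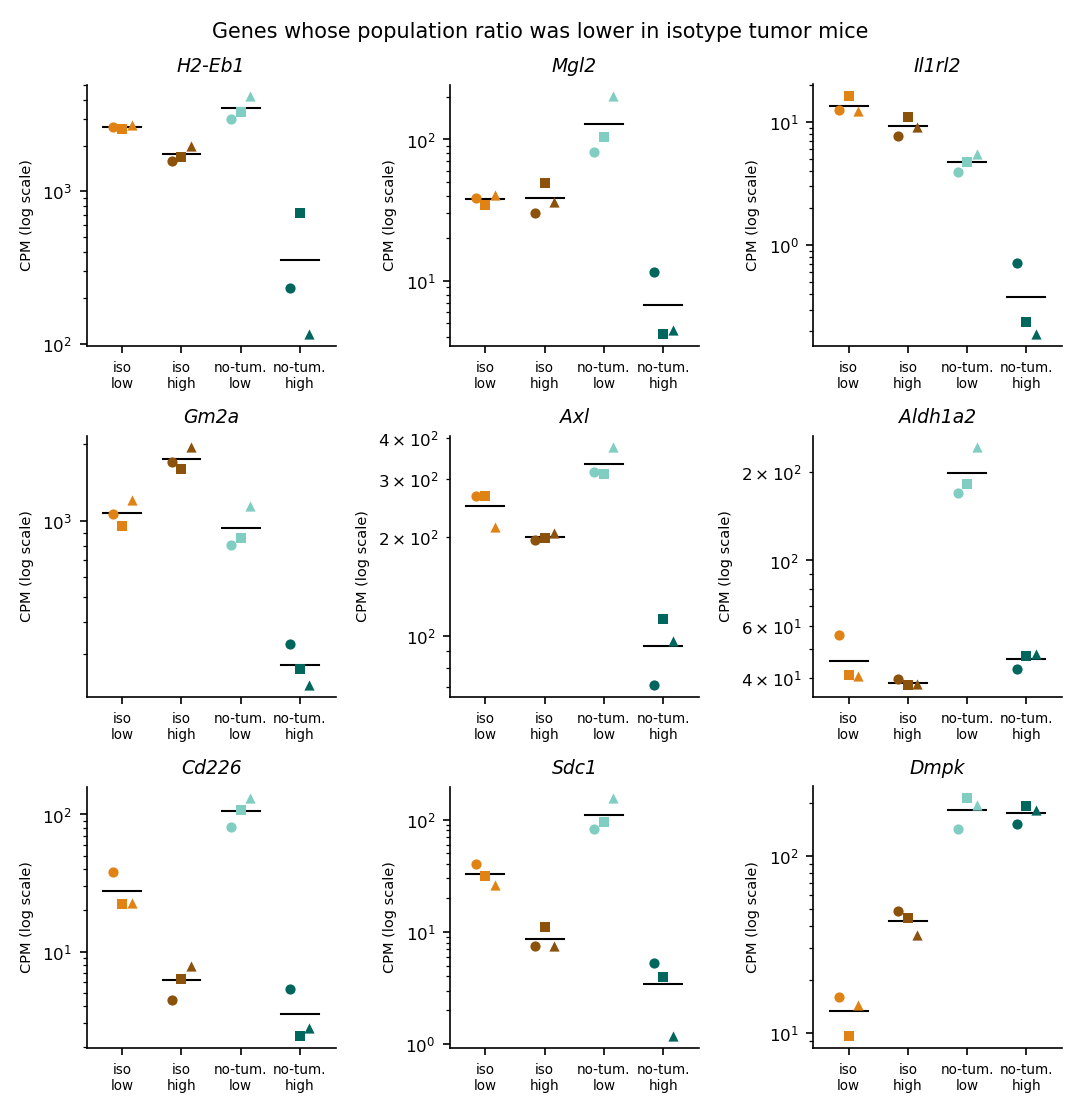
CPM on log axes for 9 genes with lower ratios, in isotype Tim-4low, isotype Tim-4high, no-tumor Tim-4low and no-tumor Tim-4high libraries (circle, square and triangle are libraries 1, 2 and 3, the line is their mean). H2-Eb1, Il1rl2, Gm2a and Axl are lowest in no-tumor Tim-4high libraries, Aldh1a2, Cd226 and Sdc1 are highest in no-tumor Tim-4low libraries, and Dmpk is lowest in isotype Tim-4low libraries.

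Several genes lost most of their population difference with a rise in Tim-4high cells. Synpo encodes synaptopodin, an actin-associated protein. Synpo was at 25.1, 23.2 and 16.1 CPM in isotype Tim-4low libraries and 17.04, 17.97 and 13.9 CPM in isotype Tim-4high libraries, against 16.9, 24.1 and 33.7 CPM in no-tumor Tim-4low and 1.46, 1.58 and 0.604 CPM in no-tumor Tim-4high libraries. No-tumor Tim-4high libraries stood alone at the low end, and the difference was -3.96 ± 0.40 (adjusted p = 0.000137). In Tim-4high cells Synpo rose by 3.75 ± 0.31 (adjusted p = 1.87e-07), and in Tim-4low cells it stood at -0.22 ± 0.25 (adjusted p = 0.486). Gm2a encodes the activator protein that presents the ganglioside GM2 for breakdown in the lysosome. For Gm2a the isotype libraries held 1061, 956 and 1208 CPM (Tim-4low) and 1701, 1601 and 1948 CPM (Tim-4high), and the no-tumor libraries held 803, 859.5 and 1147 CPM (Tim-4low) and 327, 262 and 225 CPM (Tim-4high). The order of the populations turned round, with every isotype Tim-4high library above every isotype Tim-4low one and the reverse without a tumor, and the difference was -2.49 ± 0.22 (adjusted p = 6.38e-05). Ptprs was at 109, 103 and 85.9 CPM in isotype Tim-4low libraries and 101, 113 and 101 CPM in isotype Tim-4high libraries, against 111, 88.8 and 107 CPM in no-tumor Tim-4low and 38.5, 34.7 and 31.4 CPM in no-tumor Tim-4high libraries. Ptprs, a receptor tyrosine phosphatase, overlapped between isotype populations and differed by -1.63 ± 0.16 (adjusted p = 9.12e-05). The vitamin D receptor gene Vdr rose in both populations, by 5.89 ± 0.38 (adjusted p = 1.58e-08) in Tim-4high and 2.23 ± 0.27 (adjusted p = 8.06e-06) in Tim-4low cells, and differed by -3.67 ± 0.48 (adjusted p = 0.000819), or -4.29 without no-tumor Tim-4high 1.

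Axl encodes a receptor tyrosine kinase of the TAM family, which binds phosphatidylserine through bridging proteins and takes part in the uptake of dying cells. For Axl the isotype libraries held 266, 265 and 213 CPM (Tim-4low) and 195, 198 and 205 CPM (Tim-4high), and the no-tumor libraries held 314, 309.8 and 374 CPM (Tim-4low) and 70.7, 112 and 96.2 CPM (Tim-4high). Isotype Tim-4high libraries lay above all no-tumor Tim-4high libraries, isotype Tim-4low libraries overlapped no other group, and the difference was -1.52 ± 0.20 (adjusted p = 0.000779). Axl rose in Tim-4high cells by 1.10 ± 0.14 (adjusted p = 1.25e-05) and fell in Tim-4low cells (log2 change -0.42 ± 0.14, adjusted p = 0.0202). In the 19 tested genes of TAM receptors, their bridging proteins and phosphatidylserine receptors, Axl was the lower call and Stab1 and Cd300a the higher ones.

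Secreted and surface signalling proteins were among these genes. The chemokine gene Ccl6 rose in both populations and more in Tim-4high cells. Ccl6 was at 5627, 5452 and 6062 CPM in isotype Tim-4low libraries and 5937, 7099 and 7005 CPM in isotype Tim-4high libraries, against 2720.3, 2808 and 2897 CPM in no-tumor Tim-4low and 1132, 1285 and 1546 CPM in no-tumor Tim-4high libraries. Its isotype populations overlapped, and the difference was -1.31 ± 0.15 (adjusted p = 0.000483). Adora2b and Adora2a encode receptors for adenosine. For Adora2b the isotype libraries held 35.1, 37.6 and 32.9 CPM (Tim-4low) and 39.1, 38.8 and 33.6 CPM (Tim-4high), and the no-tumor libraries held 18.8, 20.6 and 24.1 CPM (Tim-4low) and 7.17, 10.5 and 10.98 CPM (Tim-4high). Adora2b differed by -1.23 ± 0.22 (adjusted p = 0.00628). Adora2a was at 7.58, 6.21 and 11.3 CPM in isotype Tim-4low libraries and 13.4, 8.66 and 15.2 CPM in isotype Tim-4high libraries, against 31.98, 18.2 and 23.6 CPM in no-tumor Tim-4low and 9.15, 8.41 and 3.81 CPM in no-tumor Tim-4high libraries. Adora2a fell in Tim-4low cells (log2 change -1.55 ± 0.32, adjusted p = 0.000881) and differed by -2.36 ± 0.45 (adjusted p = 0.00934). In Tim-4high cells both rose, Adora2a by 0.80 ± 0.32 (adjusted p = 0.0489) and Adora2b by 1.96 ± 0.16 (adjusted p = 1.87e-07), and in Tim-4low cells Adora2b rose as well, by 0.73 ± 0.15 (adjusted p = 0.00101). Tnfsf14, the TNF family ligand LIGHT, differed by -1.99 ± 0.39 (adjusted p = 0.0095) and rose in both populations. Il1rn, the antagonist of the IL-1 receptor, differed by -1.53 ± 0.35 (adjusted p = 0.0251), a call kept in 7 of 12 omissions (highest adjusted p = 0.0751, without isotype Tim-4high 3). Bcl2a1a, an anti-apoptotic BCL2 family gene with near-identical copies, differed by -1.95 ± 0.21 (adjusted p = 0.000212).

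Other genes lost most of their difference with a fall in Tim-4low cells. Aldh1a2 encodes the retinaldehyde dehydrogenase that makes retinoic acid, a signal that resident peritoneal macrophages depend on. For Aldh1a2 the isotype libraries held 55.9, 40.8 and 40.4 CPM (Tim-4low) and 39.6, 37.6 and 38.000 CPM (Tim-4high), and the no-tumor libraries held 169.9, 182 and 242 CPM (Tim-4low) and 42.9, 47.4 and 48.3 CPM (Tim-4high). Only no-tumor Tim-4low libraries stood apart, and the difference was -1.85 ± 0.23 (adjusted p = 0.00055). Aldh1a2 fell in Tim-4low cells (log2 change -2.11 ± 0.16, adjusted p = 1.06e-07) and stood at -0.27 ± 0.16 (adjusted p = 0.177) in Tim-4high cells. It was the 1 call among 15 tested genes of retinoic acid metabolism and response. Sdc1 was at 40.6, 31.7 and 26.3 CPM in isotype Tim-4low libraries and 7.48, 11.1 and 7.47 CPM in isotype Tim-4high libraries, against 82.1, 94.3 and 155 CPM in no-tumor Tim-4low and 5.23, 3.95 and 1.17 CPM in no-tumor Tim-4high libraries. Sdc1, the heparan sulfate proteoglycan syndecan-1, kept Tim-4low above Tim-4high in both conditions with a narrower gap in isotype mice, and differed by -3.08 ± 0.52 (adjusted p = 0.00387). Sdc1 fell in Tim-4low cells (log2 change -1.75 ± 0.34, adjusted p = 0.000495) and rose in Tim-4high cells by 1.33 ± 0.39 (adjusted p = 0.0103). Sdc1 is also a plasma cell marker. Of the other 5 plasma cell markers, Jchain and Tnfrsf17 were below 1 CPM in all 12 libraries, and Derl3 was at most 1.46 CPM. Mzb1 was at 33.03, 2.88 and 4.74 CPM in no-tumor Tim-4low and 0.190, 0.252 and 1.09 CPM in isotype Tim-4low libraries. Prdm1 was at 12.98 to 15.1 CPM in isotype Tim-4low and 5.22 to 7.355 CPM in isotype Tim-4high libraries, against 2.88 to 3.49 CPM in no-tumor Tim-4low and 0.8685 to 1.23 CPM in no-tumor Tim-4high ones. In Tim-4low cells Prdm1 was thus higher in isotype mice, and Mzb1 and Sdc1 were lower. The part of plasma cells in the Sdc1 result was not tested.

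Ndnf (a secreted neurotrophic factor), Ramp1 (a co-receptor for the neuropeptide CGRP), Upb1 (an enzyme of pyrimidine breakdown) and Pianp (a ligand of a paired inhibitory receptor) were seen mainly in no-tumor Tim-4low libraries. For Ndnf the isotype libraries held 2.31, 1.58 and 1.69 CPM (Tim-4low) and 0.422, 0.543 and 1.23 CPM (Tim-4high), and the no-tumor libraries held 18.97, 33.8 and 56.02 CPM (Tim-4low) and 1.57, 0.276 and 0.604 CPM (Tim-4high). The isotype values all lay below the no-tumor Tim-4low values. Ndnf differed by -4.11 ± 0.73 (adjusted p = 0.00541), and -3.52 without isotype Tim-4high 3, -4.99 without no-tumor Tim-4high 1. Ramp1 differed by -3.72 ± 0.72 (adjusted p = 0.00931), Upb1 by -3.21 ± 0.65 (adjusted p = 0.0125) and Pianp by -3.31 ± 0.85 (adjusted p = 0.0429). Without isotype Tim-4high 3 their adjusted p-values were 0.0598, 0.0964 and 0.296, and Ramp1 and Pianp stood at -2.91 and -2.45. Pianp kept its call in 4 of 12 omissions. Ryr1, a calcium release channel, and Olfm1, a secreted glycoprotein, differed by -2.58 ± 0.29 (adjusted p = 0.000275) and -2.81 ± 0.30 (adjusted p = 0.000212), with a fall in Tim-4low cells and a rise in Tim-4high cells for each.

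In another shape the Tim-4low level was lower than the Tim-4high level in isotype mice, with no call in no-tumor mice. Dmpk was at 15.98, 9.55 and 14.4 CPM in isotype Tim-4low libraries and 48.8, 44.9 and 35.9 CPM in isotype Tim-4high libraries, against 142, 212 and 195 CPM in no-tumor Tim-4low and 151, 192 and 182 CPM in no-tumor Tim-4high libraries. Dmpk, a serine/threonine kinase, fell in both populations and further in Tim-4low cells, with no overlap between isotype populations and a difference of -1.76 ± 0.26 (adjusted p = 0.00159). For Dapk1 the isotype libraries held 235, 196 and 220.0 CPM (Tim-4low) and 385, 368 and 374 CPM (Tim-4high), and the no-tumor libraries held 389, 414 and 466 CPM (Tim-4low) and 379.9, 355 and 346 CPM (Tim-4high). Dapk1, a death-associated kinase, fell in Tim-4low cells (log2 change -0.96 ± 0.09, adjusted p = 1.09e-06) and differed by -1.02 ± 0.13 (adjusted p = 0.000734). Man2a2, a Golgi mannosidase, differed by -1.22 ± 0.18 (adjusted p = 0.00186). Populations changed places for Gfi1b, a transcriptional repressor (-2.12 ± 0.22 (adjusted p = 0.000212)), for Ksr1, a scaffold of the MAP kinase pathway (-1.28 ± 0.14 (adjusted p = 0.000212)), and for Alcam, an adhesion molecule (-1.48 ± 0.23 (adjusted p = 0.0023)). For Alcam, 88.4, 80.5 and 99.9 CPM in isotype Tim-4low stood against 141, 162 and 143 CPM in isotype Tim-4high libraries, and 127, 156 and 174 CPM in no-tumor Tim-4low against 109.9, 82.2 and 80.3 CPM in no-tumor Tim-4high ones.

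**Figure D3:**
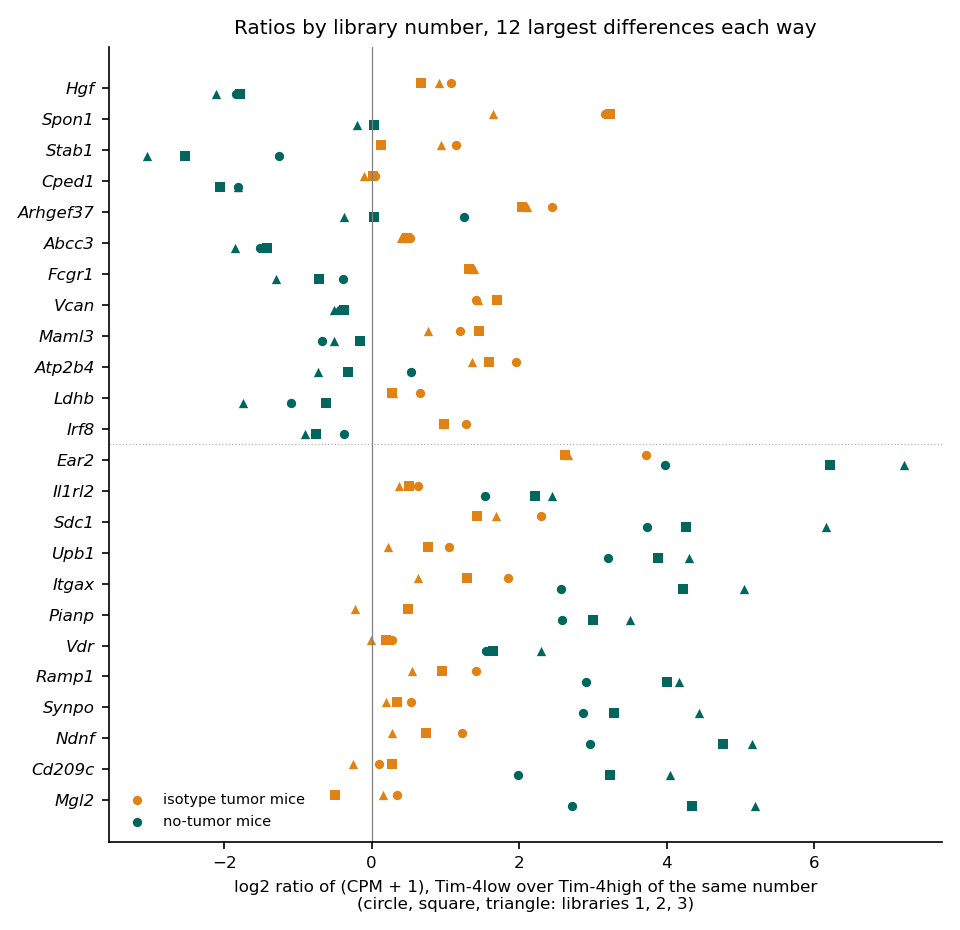
Log2 ratio of CPM plus 1, Tim-4low over Tim-4high of the same library number, in isotype (orange) and no-tumor mice (green), for the 12 largest differences each way among named genes. The groups do not overlap for any of the 24 genes, which the naming rule required, and lower genes such as Mgl2 sit near 0 in isotype mice.

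On the other side, genes with higher ratios rose in Tim-4low cells, fell in Tim-4high cells, or both. Stab1 (chr14:31139013-31168641, mm10) encodes stabilin-1, a scavenger receptor that also binds phosphatidylserine. Stab1 was at 541, 574 and 383 CPM in isotype Tim-4low libraries and 244, 526 and 199 CPM in isotype Tim-4high libraries, against 91.9, 46.5 and 39.04 CPM in no-tumor Tim-4low and 222, 274 and 329 CPM in no-tumor Tim-4high libraries. Without a tumor every Tim-4low library was below every Tim-4high one, and with it the populations overlapped, Tim-4low having risen by 3.08 ± 0.39 (adjusted p = 1.32e-05). Its difference was 2.84 ± 0.52 (adjusted p = 0.0071). Of 15 scavenger receptors tested, 3 had higher ratios (Stab1, Msr1, Cxcl16) and none a lower one, with a list median of 0.17. With the block there were 4 higher and 3 lower. Msr1, the class A scavenger receptor, rose in Tim-4low cells by 1.13 ± 0.11 (adjusted p = 7.53e-07) and differed by 0.89 ± 0.15 (adjusted p = 0.00387). For Cxcl16 the isotype libraries held 49.5, 54.2 and 54.4 CPM (Tim-4low) and 30.2, 36.6 and 40.3 CPM (Tim-4high), and the no-tumor libraries held 27.2, 26.8 and 25.5 CPM (Tim-4low) and 41.8, 50.1 and 38.9 CPM (Tim-4high). Cxcl16, a chemokine that in its membrane form takes up oxidised lipoprotein, had Tim-4low above Tim-4high with a tumor and below it without, and differed by 1.28 ± 0.19 (adjusted p = 0.00172).

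Innate sensors and antibody or complement receptors were in the same group. Tlr13 was at 287, 288 and 262 CPM in isotype Tim-4low libraries and 329.9, 313 and 287 CPM in isotype Tim-4high libraries, against 74.6, 79.8 and 51.8 CPM in no-tumor Tim-4low and 215, 199.6 and 211 CPM in no-tumor Tim-4high libraries. Tlr13, an endosomal sensor of bacterial ribosomal RNA, was lowest in no-tumor Tim-4low libraries and differed by 1.45 ± 0.17 (adjusted p = 0.000504). Of 25 Toll-like receptors and adaptors tested, 3 had higher ratios (Tlr13, Tlr5, Irak3) and none a lower one. With the block 8 were higher, adding Cd180, Ly86, Ly96, Tlr1 and Tlr2. Tlr5 and Irak3 kept their calls in 7 and 6 of 12 omissions. For Fcgr1 the isotype libraries held 337, 405 and 375 CPM (Tim-4low) and 131, 162 and 142 CPM (Tim-4high), and the no-tumor libraries held 29.2, 32.7 and 11.2 CPM (Tim-4low) and 38.7, 54.6 and 28.9 CPM (Tim-4high). Fcgr1, the high-affinity IgG receptor CD64, rose in both populations and more in Tim-4low cells, with no overlap between isotype populations and an overlap without a tumor, and differed by 2.10 ± 0.42 (adjusted p = 0.0112). It was the 1 call among 10 tested Fc receptors. C3ar1 was at 499.8, 554 and 452 CPM in isotype Tim-4low libraries and 280.1, 371 and 265 CPM in isotype Tim-4high libraries, against 251, 264 and 259.8 CPM in no-tumor Tim-4low and 336, 331 and 471 CPM in no-tumor Tim-4high libraries. C3ar1, the receptor for complement fragment C3a, differed by 1.27 ± 0.20 (adjusted p = 0.00308), and each population lay apart in both conditions, in opposite order. C5ar1, the receptor for C5a, differed by 0.79 ± 0.19 (adjusted p = 0.0344) with 2 of 12 omissions keeping the call. Of 23 complement genes tested, 3 had higher ratios, C3ar1 and C5ar1 among them, and Itgax was the lower call.

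Transcription factors gave 2 higher calls and 1 lower call of 38 tested, and 8 and 5 with the block. Irf8 directs monocyte and dendritic cell development. For Irf8 the isotype libraries held 317, 364 and 332 CPM (Tim-4low) and 129.7, 185 and 169 CPM (Tim-4high), and the no-tumor libraries held 74.8, 117 and 92.7 CPM (Tim-4low) and 96.9, 197 and 174 CPM (Tim-4high). In isotype mice every Tim-4low library was above every Tim-4high one, and without a tumor Tim-4low was below Tim-4high in each of the 3 numbered pairs (log2 ratio -0.72 ± 0.24, adjusted p = 0.0366), although the groups overlapped. Irf8 differed by 1.79 ± 0.34 (adjusted p = 0.00791), having risen in Tim-4low cells by 1.83 ± 0.24 (adjusted p = 1.89e-05). Maf was at 285, 295 and 276 CPM in isotype Tim-4low libraries and 102, 144 and 104 CPM in isotype Tim-4high libraries, against 203, 228 and 192 CPM in no-tumor Tim-4low and 165, 204 and 286 CPM in no-tumor Tim-4high libraries. Maf, a factor of differentiated macrophages, fell in Tim-4high cells (log2 change -0.90 ± 0.22, adjusted p = 0.00285) and differed by 1.36 ± 0.31 (adjusted p = 0.0231). For Maf 6 of 12 omissions kept the call (highest adjusted p = 0.0697, without isotype Tim-4high 3). The lower call was Irf4, given above.

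Matrix genes gave 3 higher calls (Tgfbi, Vcan, Mmp14) of 28 tested. Tgfbi encodes a matrix protein induced by TGF-beta. For Tgfbi the isotype libraries held 807, 1063 and 869 CPM (Tim-4low) and 206, 319 and 305 CPM (Tim-4high), and the no-tumor libraries held 542, 646 and 732 CPM (Tim-4low) and 701, 509.9 and 706 CPM (Tim-4high). The no-tumor populations overlapped and the isotype populations lay far apart, with a difference of 1.72 ± 0.28 (adjusted p = 0.00346). Vcan was at 191, 256 and 209 CPM in isotype Tim-4low libraries and 70.5, 77.97 and 76.3 CPM in isotype Tim-4high libraries, against 11.5, 4.76 and 3.78 CPM in no-tumor Tim-4low and 15.9, 6.47 and 5.81 CPM in no-tumor Tim-4high libraries. Vcan, the proteoglycan versican and a monocyte marker, rose in both populations and differed by 2.05 ± 0.53 (adjusted p = 0.0444). It kept its call in 3 of 12 omissions, and the value was 2.70 without no-tumor Tim-4low 1, 1.45 without no-tumor Tim-4high 1. Those fits had no block and kept the same-numbered partner of the library left out. With the block the edgeR adjusted p of Vcan was 3.91e-06. Its log2 ratios of CPM plus 1 by library number were 1.42, 1.70 and 1.44 in isotype mice and -0.43, -0.38 and -0.51 in no-tumor mice. Mmp14, a membrane-bound protease of collagen, differed by 1.70 ± 0.45 (adjusted p = 0.0479) and kept its call in 2 of 12 omissions. The 12 monocyte markers summed to 4317 to 5602 CPM in isotype Tim-4low, 8025 to 8298 CPM in isotype Tim-4high, 2414 to 3355 CPM in no-tumor Tim-4low and 619 to 1339 CPM in no-tumor Tim-4high libraries. Chil3 carried the order of the isotype sums, at 1944 to 3378 CPM in isotype Tim-4low and 7063 to 7452 CPM in isotype Tim-4high, against at most 55.04 CPM in no-tumor libraries. Ccr2 ran the other way in isotype mice, with 811 to 959.7 CPM (Tim-4low) and 45.01 to 123 CPM (Tim-4high), and so did Ly6c2, with 74.7 to 102 CPM (Tim-4low) and 11.1 to 30.1 CPM (Tim-4high). Summed as log2(CPM + 1), the markers were higher in Tim-4low in isotype mice (80.1 to 81.7) than in Tim-4high (69.4 to 73.98). The part of monocytes in the Vcan result was not tested. For Spon1 the isotype libraries held 23.7, 33.9 and 26.1 CPM (Tim-4low) and 1.76, 2.72 and 7.62 CPM (Tim-4high), and the no-tumor libraries held 1.36, 1.28 and 0.993 CPM (Tim-4low) and 1.31, 1.22 and 1.28 CPM (Tim-4high). Spon1, the secreted matrix protein spondin 1, rose in Tim-4low cells by 4.53 ± 0.40 (adjusted p = 4.5e-07) and in Tim-4high cells by 1.66 ± 0.40 (adjusted p = 0.00288), and differed by 2.87 ± 0.56 (adjusted p = 0.0101), or 3.71 without isotype Tim-4high 3.

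**Figure D4:**
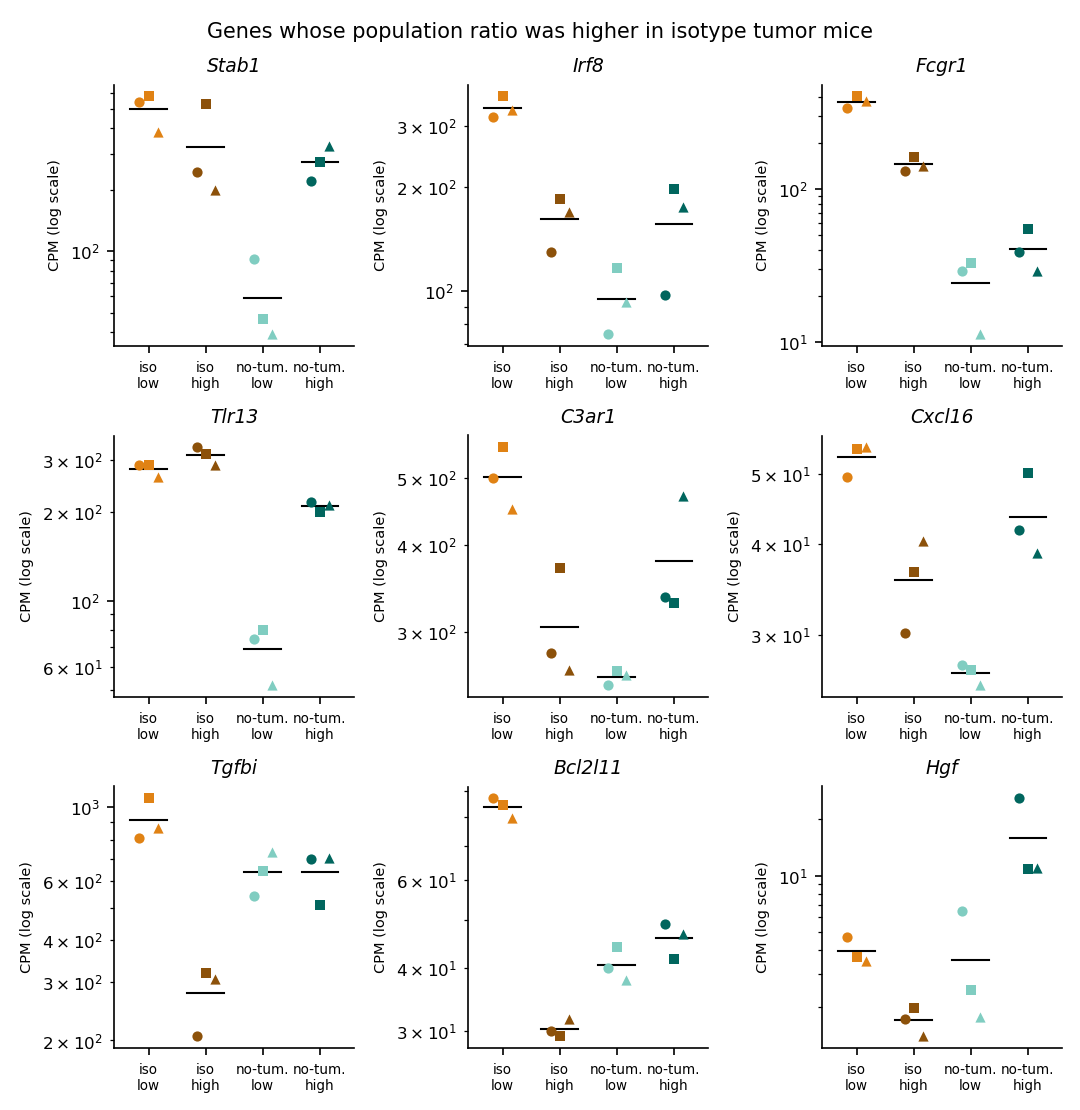
CPM on log axes for 9 genes with higher ratios, in isotype Tim-4low, isotype Tim-4high, no-tumor Tim-4low and no-tumor Tim-4high libraries (circle, square and triangle are libraries 1, 2 and 3, the line is their mean). Stab1 and Tlr13 are lowest in no-tumor Tim-4low libraries, Tgfbi, Bcl2l11 and Hgf have their lowest mean in isotype Tim-4high libraries, and Irf8, Fcgr1, C3ar1 and Cxcl16 their highest mean in isotype Tim-4low libraries.

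Hgf (chr5:16553495-16620152, mm10), the hepatocyte growth factor gene, fell in Tim-4high cells. Hgf was at 4.72, 3.69 and 3.49 CPM in isotype Tim-4low libraries and 1.73, 1.96 and 1.39 CPM in isotype Tim-4high libraries, against 6.49, 2.44 and 1.76 CPM in no-tumor Tim-4low and 25.8, 10.9 and 10.98 CPM in no-tumor Tim-4high libraries. Isotype Tim-4high libraries were the lowest of their population, and no-tumor Tim-4high libraries the highest of all. Hgf fell (log2 change -3.23 ± 0.47, adjusted p = 4.21e-05) there and differed by 3.39 ± 0.64 (adjusted p = 0.00798), or 4.15 without no-tumor Tim-4low 1. Bcl2l11 encodes the pro-apoptotic protein BIM and had the smallest adjusted p of the genes described here. For Bcl2l11 the isotype libraries held 87.02, 84.5 and 79.4 CPM (Tim-4low) and 30.04, 29.3 and 31.8 CPM (Tim-4high), and the no-tumor libraries held 40.01, 44.1 and 37.9 CPM (Tim-4low) and 48.97, 41.8 and 46.8 CPM (Tim-4high). Isotype Tim-4low libraries were the highest and isotype Tim-4high libraries the lowest, with no overlap. Bcl2l11 rose in Tim-4low cells by 1.04 ± 0.10 (adjusted p = 6.39e-07), fell in Tim-4high cells (log2 change -0.59 ± 0.10, adjusted p = 0.000116) and differed by 1.64 ± 0.14 (adjusted p = 6.04e-05). Dpep2 was at 144, 134 and 118 CPM in isotype Tim-4low libraries and 49.1, 49.1 and 46.7 CPM in isotype Tim-4high libraries, against 211, 269 and 293 CPM in no-tumor Tim-4low and 275, 307 and 320.1 CPM in no-tumor Tim-4high libraries. Dpep2, a membrane dipeptidase, fell in both populations and further in Tim-4high cells, with a difference of 1.67 ± 0.22 (adjusted p = 0.000853). Maml3, a coactivator of Notch signalling, differed by 1.99 ± 0.31 (adjusted p = 0.00223), and Lpar6, a receptor for lysophosphatidic acid, by 1.35 ± 0.18 (adjusted p = 0.000899). Cd40, the costimulatory receptor, fell in Tim-4high cells (log2 change -1.03 ± 0.15, adjusted p = 3.85e-05) and differed by 1.07 ± 0.21 (adjusted p = 0.0099).

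Further genes with higher ratios encode transporters, enzymes and adaptors. For Abcc3 the isotype libraries held 127, 135 and 105 CPM (Tim-4low) and 88.6, 96.4 and 79.5 CPM (Tim-4high), and the no-tumor libraries held 26.3, 14.8 and 11.7 CPM (Tim-4low) and 77.2, 41.02 and 45.2 CPM (Tim-4high). Abcc3, an efflux transporter of organic anions, rose in Tim-4low cells by 2.80 ± 0.29 (adjusted p = 1.95e-06) and in Tim-4high cells by 0.69 ± 0.27 (adjusted p = 0.044), and its isotype Tim-4low libraries lay above all others, with a difference of 2.11 ± 0.39 (adjusted p = 0.00735). Cped1, a gene of little known function, had 14.1, 15.9 and 13.3 CPM in isotype Tim-4low and 13.6, 15.7 and 14.4 CPM in isotype Tim-4high libraries, against 3.87, 1.91 and 2.10 CPM in no-tumor Tim-4low and 16.1, 11.1 and 9.85 CPM in no-tumor Tim-4high libraries. Only no-tumor Tim-4low libraries were low, and Cped1 differed by 2.23 ± 0.34 (adjusted p = 0.00186). Atp2b4, a calcium pump of the plasma membrane, differed by 1.92 ± 0.37 (adjusted p = 0.00907), and Arhgap24, a negative regulator of Rac, by 1.49 ± 0.19 (adjusted p = 0.000628). Fam129b differed by 1.17 ± 0.13 (adjusted p = 0.000274) and Tgm1, a transglutaminase, by 1.26 ± 0.12 (adjusted p = 9.12e-05), each with a rise in Tim-4low cells. In Tim-4high cells Fam129b fell and Tgm1 rose. Mrvi1 was at 6.56, 6.49 and 4.89 CPM in isotype Tim-4low libraries and 2.57, 3.30 and 2.62 CPM in isotype Tim-4high libraries, against 43.4, 43.1 and 44.1 CPM in no-tumor Tim-4low and 68.8, 57.6 and 59.2 CPM in no-tumor Tim-4high libraries. Mrvi1, a regulator of calcium release from the endoplasmic reticulum, fell in both populations and further in Tim-4high cells, with a log2 change of -4.45 ± 0.16 (adjusted p = 2.16e-10), and differed by 1.59 ± 0.20 (adjusted p = 0.000705). Fyb, an adaptor of integrin signalling, differed by 0.69 ± 0.09 (adjusted p = 0.000899). Arsg (a lysosomal sulfatase), Gypc (glycophorin C) and Galm (galactose mutarotase) stayed lower in Tim-4low cells in both conditions with a narrower gap in isotype mice, and differed by 0.89 ± 0.17 (adjusted p = 0.0101), 0.59 ± 0.13 (adjusted p = 0.0162) and 0.64 ± 0.14 (adjusted p = 0.0157). With the block over the 12 libraries alone the call of Galm was lost (adjusted p = 0.0588). Arhgef37, a gene of the guanine nucleotide exchange factors, and Ldhb, a lactate dehydrogenase subunit, differed by 2.11 ± 0.55 (adjusted p = 0.0467) and 1.82 ± 0.44 (adjusted p = 0.0323) and kept their calls in 2 and 4 of 12 omissions.

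Lipid handling gave 5 higher calls and no lower one of 34 tested (10 and 2 with the block), with a median of 0.12. For Apoe the isotype libraries held 2293, 2173 and 2005 CPM (Tim-4low) and 963, 1323 and 1012 CPM (Tim-4high), and the no-tumor libraries held 10629, 16341 and 20444 CPM (Tim-4low) and 15525, 20939.7 and 33934 CPM (Tim-4high). Apoe, the apolipoprotein E gene, fell in both populations and further in Tim-4high cells, and no isotype library overlapped a no-tumor one. Apoe differed by 1.54 ± 0.40 (adjusted p = 0.0467), with 2 of 12 omissions keeping the call. Lpl was at 199, 155 and 148 CPM in isotype Tim-4low libraries and 56.6, 69.9 and 58.7 CPM in isotype Tim-4high libraries, against 587, 667 and 859.7 CPM in no-tumor Tim-4low and 648, 467 and 638 CPM in no-tumor Tim-4high libraries. Lpl, lipoprotein lipase, likewise fell in both and differed by 1.17 ± 0.25 (adjusted p = 0.0161). Apoc2, the activator of that lipase, differed by 1.55 ± 0.32 (adjusted p = 0.0149). Soat1, which esterifies cholesterol, differed by 0.61 ± 0.14 (adjusted p = 0.0213), and Trem2, a lipid-sensing receptor of macrophages, by 1.28 ± 0.33 (adjusted p = 0.0448), with 7 and 3 of 12 omissions keeping the call. Among 23 genes of cholesterol synthesis, 2 had lower ratios and none a higher one, and of these Dhcr7 differed by -0.53 ± 0.13 (adjusted p = 0.0334), with 5 of 12 omissions keeping the call and the block over the 12 libraries alone losing it (adjusted p = 0.0665).

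Lysosomal genes leaned the other way, with 5 lower calls (among them Ctsh, Psap and Tpp1) and 1 higher (Lgmn) of 36 tested, and 10 and 2 with the block, though the list's median was -0.07. For Ctsh the isotype libraries held 530.4, 528 and 519 CPM (Tim-4low) and 572, 541 and 554 CPM (Tim-4high), and the no-tumor libraries held 481, 462 and 519 CPM (Tim-4low) and 349, 325 and 316 CPM (Tim-4high). Ctsh, cathepsin H, rose in Tim-4high cells and differed by -0.64 ± 0.09 (adjusted p = 0.00118). Lgmn was at 698, 769.9 and 739.6 CPM in isotype Tim-4low libraries and 775, 865 and 733 CPM in isotype Tim-4high libraries, against 241, 211 and 198 CPM in no-tumor Tim-4low and 553, 437 and 531 CPM in no-tumor Tim-4high libraries. Lgmn, the asparaginyl endopeptidase legumain, rose in both and more in Tim-4low cells, and differed by 1.12 ± 0.16 (adjusted p = 0.00122). Tpp1 (a peptidase) and Psap (a precursor of activator proteins) differed by -0.38 ± 0.09 (adjusted p = 0.0218) and -0.58 ± 0.14 (adjusted p = 0.0281), with 8 and 3 of 12 omissions keeping the call. Iron, haem and antioxidant genes gave 3 higher calls of 25 tested. Blvrb, biliverdin reductase B, differed by 0.71 ± 0.11 (adjusted p = 0.00179), Prdx1, a peroxidase, by 0.63 ± 0.13 (adjusted p = 0.0115), and Gsr, glutathione reductase, by 0.95 ± 0.24 (adjusted p = 0.0391), with Gsr kept in 1 of 12 omissions.

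The remaining lists gave between 0 and 6 calls each. Cytokines and their receptors gave 2 higher (Tgfbr1, 0.84 ± 0.16 (adjusted p = 0.00924); Il17ra, 0.59 ± 0.12 (adjusted p = 0.0151)) and 2 lower calls of 36. The list of costimulatory and inhibitory ligands also held receptors, among them Cd40, Adora2a and Adora2b. It gave 2 higher (Cd40, Pvr) and 4 lower calls (Adora2a, Adora2b, Tnfsf14, Lgals3) of 24, among them Lgals3, galectin-3, at -0.69 ± 0.15 (adjusted p = 0.0187). CC chemokines and receptors gave 1 higher (Ccr1, 0.71 ± 0.15 (adjusted p = 0.0159)) and 1 lower call (Ccl6) of 18. Of 16 CXC chemokines and receptors only Cxcl16 was called. Adhesion molecules and integrins gave 3 lower calls of 28 (Alcam, Itgax, Itgb8). Itgb8 had no count in any no-tumor Tim-4high library and at most 0.407 CPM elsewhere in the 12, so no fold is given for it, and its adjusted p of 0.0297 became 0.0591 with the block. Immediate-early genes gave 1 higher (Ier3) and 1 lower call (Dusp5) of 25, the type I interferon list 1 higher call (Ifnar1) of 27, glycolysis and hypoxia 1 lower call (Ankrd37) of 30, and DNA replication and mitosis 2 lower calls (Mcm3, Rrm2) of 38. With the block these 4 lists had 2 higher and 10 lower, 6 higher and 0 lower, 9 higher and 6 lower, and 0 higher and 9 lower calls. Replication genes moved most with single libraries, with 0 to 25 lower calls over the 12 omissions. Interferon-gamma, heat shock and mitochondrial genome lists had 0 calls by edgeR without the block, with 0, 0 and 9 genes at an unadjusted p under 0.05. DESeq2 called 0, 0 and 4 of their genes, against 1040 of 16609 over all genes tested. With the block these lists gave 1 higher, 1 lower and 6 higher calls of 24, 26 and 13 tested.

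**Figure D5:**
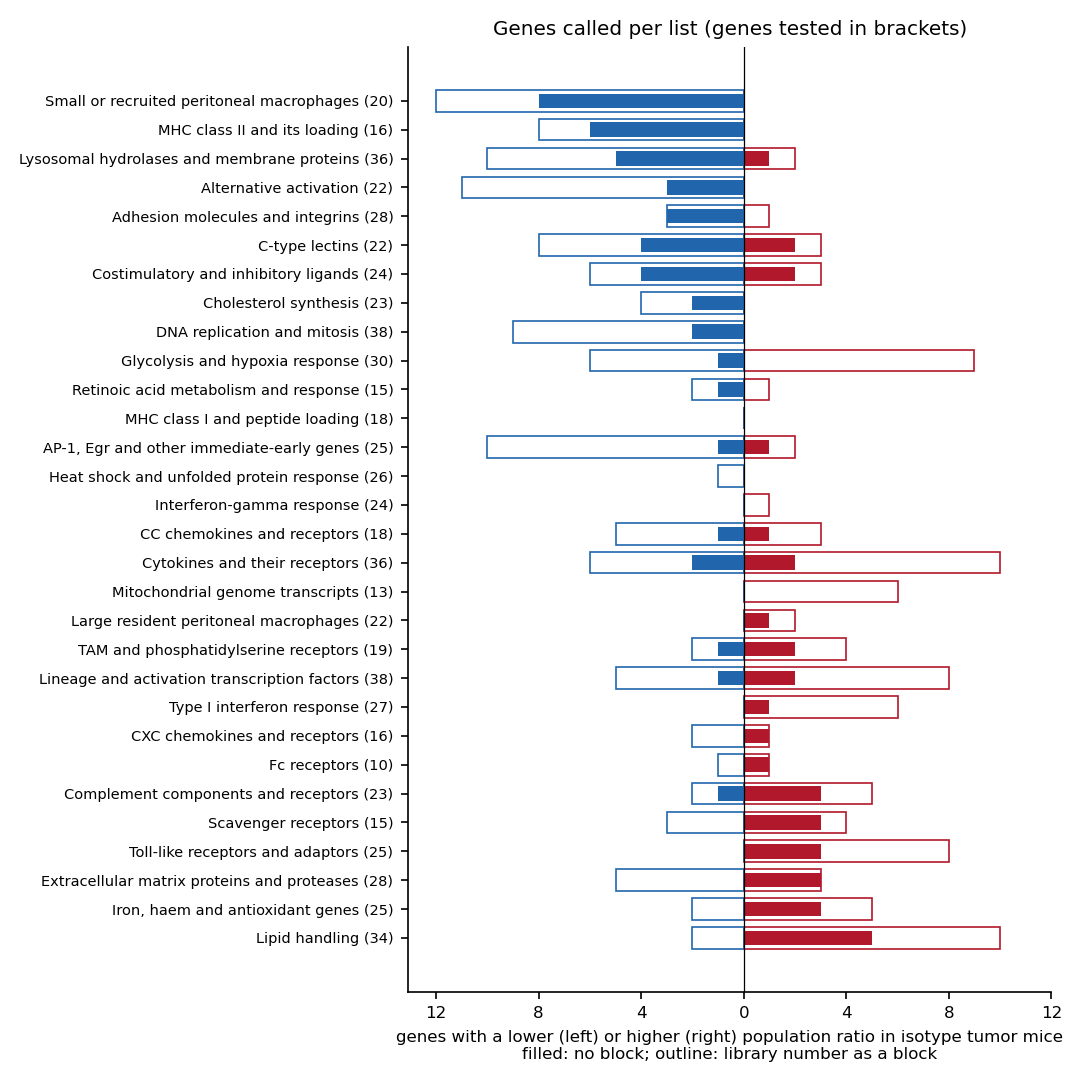
Genes called in each of 30 lists, with higher ratios in isotype tumor mice to the right and lower ratios to the left; filled bars are counts without a block and outlines counts with library number as a block. Small or recruited macrophage genes (8) and MHC class II genes (6) have the most lower calls, and lipid handling genes (5) the most higher calls.

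Over the 30 lists, 73 of 650 tested genes were called. The lists were written with earlier results of these data known, so their counts describe the members. Counts without the block are read beside 3.53% over all genes. Those with the block are read beside 11.2% over all genes, 4.61% higher and 6.58% lower. Those by DESeq2 are read beside 1040 of 16609 genes. For an unadjusted p under 0.05 no share over all genes is given, so those counts only describe the members. Markers of 14 cell types, compared between conditions as log2 ratios of their summed CPM, gave exact permutation p-values of 0.1 or more (two-sided, 3 against 3), and 0.1 is the smallest these designs allow. Without the block, called markers were Fcgr1 (macrophages), Vcan (monocytes), Sdc1 (plasma cells), and Cd209a and Itgax (dendritic cells). No marker of B, T or NK cells, neutrophils, mast cells, mesothelial cells or red cells was called in that fit. With the block further markers were called. Among them were Csf3r and Mmp9 (neutrophils), Chil3 and Hp (monocytes), Cd68 (macrophages), Flt3, Clec9a and Fscn1 (dendritic cells) and Pecam1 (endothelial cells).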

How the data were processed

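RNA of sorted peritoneal macrophages was sequenced. The authors deposited estimated counts per gene, with no normalization. STAR, DESeq2 and the build mm10 are named in the submitters' processing notes. No source used here gives the quantifier, the annotation release or the use of strand, so overlapping or antisense genes and near-identical copies are uncertain. All 23511 symbols matched GENCODE M21, and 23491 genes also matched in start and end (the file's stop less 1 base).

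After rounding, 16609 genes passed filterByExpr. The 6902 others made up no more than 0.0878% of any library. With edgeR 4.0.16 under R 4.3.3, 1 model was fitted to 6 groups of 3 libraries using TMM factors, and its contrast was tested by quasi-likelihood (12 residual degrees of freedom, common dispersion 0.0323), and genes passed in the interaction contrast below a Benjamini-Hochberg adjusted p of 0.05. CPM used TMM library sizes. An SE is the size of the log2 value divided by the root of F. Replicates differed beyond counting noise (chi-square per degree of freedom 9.66 to 75.2), so none was a copy.

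Library numbers were checked on deviations from group means. Same-numbered libraries of both populations in 1 condition correlated at 0.308 to 0.599 in 9 pairs, those of other numbers at -0.556 to 0.286, and the same number across conditions at -0.316 to 0.291. Deviations cancel within a group, so high values for the same number partly force low ones for other numbers. Isotype Tim-4low 1 correlated at 0.327 with isotype Tim-4high 1 and at 0.286 with isotype Tim-4high 2, so this pair is barely told apart. Since all 9 same-number values were positive, numbers were taken to pair populations within a condition. The labels do not say that a number is 1 mouse.

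The rule for naming genes took Timd4, the 12 largest called differences each way with a mean of at least 10 CPM in a group and ratios by number (pseudocount 1) that did not overlap, up to 6 called members of each list with the smallest p, the 3 smallest p of each shape with at least 10 genes, and called markers, without predicted models. It took 109 genes, of which a few are not reported here. Genes and lists were chosen with earlier results of these data known. The genes singled out in the last part, the single monocyte and plasma cell markers that are not called, and the X and Y letters, were chosen after their values were seen. The test was run on simulated data first. Alternatives were RLE factors, no filter, robust estimation, DESeq2 1.42.0, the 12 libraries alone, library number as a block, an adjusted p under 0.01 and each library left out.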

Additional observations from a re-analysis of the deposited data

Results flagged for a closer look

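For each of 104 called genes that the naming rule took, the change of isotype tumor over no tumor differed between Tim-4low and Tim-4high cells by the test of that difference itself, edgeR's quasi-likelihood test of the interaction. Values in brackets are log2 differences, the Tim-4low over Tim-4high ratio in isotype mice minus that in no-tumor mice. The highest values belonged to Hgf (3.39), Spon1 (2.87), Stab1 (2.84), Tlr5 (2.43), Cped1 (2.23), Arhgef37 (2.11), Abcc3 (2.11), Fcgr1 (2.10), Vcan (2.05), Maml3 (1.99) and Atp2b4 (1.92). Next in order came Ldhb (1.82), Irf8 (1.79), Clec5a (1.78), Tgfbi (1.72), Mmp14 (1.70), Dpep2 (1.67), Bcl2l11 (1.64), Mrvi1 (1.59), Apoc2 (1.55), Apoe (1.54) and Arhgap24 (1.49). Smaller rises in the ratio were those of Tlr13 (1.45), Maf (1.36), Lpar6 (1.35), Cxcl16 (1.28), Trem2 (1.28), C3ar1 (1.27), Tgm1 (1.26), Ier3 (1.25), Lpl (1.17), Fam129b (1.17) and Lgmn (1.12). Lower still among the higher ratios were Cd40 (1.07), Gsr (0.95), Pvr (0.90), Msr1 (0.89), Arsg (0.89), Tgfbr1 (0.84), C5ar1 (0.79), Ccr1 (0.71), Blvrb (0.71), Fyb (0.69) and Galm (0.64). Last of the higher ratios came Prdx1 (0.63), Soat1 (0.61), Ifnar1 (0.60), Il17ra (0.59), Gypc (0.59), Cd300a (0.48) and Irak3 (0.43).

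The lowest values belonged to Mgl2 (-4.28), Cd209c (-4.25), Cd209d (-4.24), Ndnf (-4.11), Synpo (-3.96), Ramp1 (-3.72), Vdr (-3.67), Pianp (-3.31) and Itgax (-3.24). Then came Upb1 (-3.21), Sdc1 (-3.08), Il1rl2 (-3.07), Ear2 (-3.04), Cd209a (-2.96), Olfm1 (-2.81), Dusp5 (-2.80), Cd226 (-2.77) and H2-Eb1 (-2.72). Between these and the middle of the list stood H2-Aa (-2.68), Ryr1 (-2.58), H2-Ab1 (-2.55), Gm2a (-2.49), Cd74 (-2.44), Adora2a (-2.36), Gfi1b (-2.12), Tnfsf14 (-1.99) and Clec4a2 (-1.97). In the middle of the list were Bcl2a1a (-1.95), H2-DMb1 (-1.89), Aldh1a2 (-1.85), Dmpk (-1.76), H2-DMa (-1.75), Ptprs (-1.63), Il1rn (-1.53), Axl (-1.52) and Alcam (-1.48). Less negative were Rrm2 (-1.38), Ccl6 (-1.31), Ksr1 (-1.28), Adora2b (-1.23), Man2a2 (-1.22), Irf4 (-1.16), Ankrd37 (-1.11), Dapk1 (-1.02) and Lsp1 (-0.76). Closest to 0 came Csf2rb (-0.74), Lgals3 (-0.69), Ctsh (-0.64), Psap (-0.58), Mcm3 (-0.55), Dhcr7 (-0.53) and Tpp1 (-0.38). Itgb8 had a fitted value of -5.34, which depends on the prior count because no no-tumor Tim-4high library held a read, and is no measure of its fold. Cd209c and Cd209d were at most 0.770 and 0.462 CPM in isotype libraries, so the size of their values is uncertain. No cause was tested for any of the values listed.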

How the results depend on the processing

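The 587 genes called (220 with higher and 367 with lower ratios) were also counted under other settings. DESeq2 called 1040 (402 higher, 638 lower). With library number as a replicate block there were 1858 (765 and 1093) over 18 libraries and 1296 (582 and 714) over the 12 libraries of the contrast, and the pairing within a condition was close enough (correlations of 0.308 to 0.599) for these to stand beside the unblocked count. An adjusted p under 0.01 left 198 (66 and 132). A further 2 alternatives were chosen after seeing the data: without both no-tumor libraries 1 there were 911 (296 and 615), and without both isotype libraries 3 there were 264 (108 and 156). Leaving out single libraries gave 321 to 889 genes, 116 to 302 higher and 197 to 587 lower. The lowest, 321, came without isotype Tim-4low 2, and the highest, 889, without no-tumor Tim-4high 1. Counts with RLE factors (592), no filter (479), robust estimation (575) and the 12 libraries alone (402) lay within 1.5 times. The cause of these shifts was not tested. No named gene changed sign in a called value. Of the 108 named genes called, the block lost 1 over 18 libraries (Itgb8) and 4 over the 12 (also Ear2, Dhcr7 and Galm). The 12 libraries alone lost 33, no filter and robust estimation 12 each, single omissions 8 to 40, both isotype libraries 3 left out 51 and both no-tumor libraries 1 left out 5, while RLE factors lost 0. DESeq2 gave an adjusted p for 108 of the 109 named genes and lost 0 of these. A gene without an adjusted p was not counted as lost. Timd4 was called only without no-tumor Tim-4low 1. The share of higher among called genes stayed between 32.5% and 44.9%. Numbers did not pair libraries across conditions.

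Depth, at 24530070 counts or more in a library, limits mainly genes near 0, of which 6 called genes had 3 counts or fewer in a whole group. The summed markers cannot pass at 3 against 3 libraries, where 0.1 is the smallest exact p.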

Other observations

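Immediate-early genes, the first transcribed when a cell is stimulated or handled, include some that were called with library number as a block and not without it. The genes in this paragraph were chosen after their values were seen. For Fosb, the ratios of libraries 1, 2 and 3 on the log2 scale of CPM plus 1 were -0.92, -0.79 and -0.58 in isotype mice, against 0.33, 0.79 and 0.66 in no-tumor mice (-1.40, adjusted p = 0.000239 with the block and 0.279 without). For Btg2 they were -0.67, -0.61 and -0.52 in isotype mice and -0.16, 0.02 and 0.01 in no-tumor mice (-0.56, adjusted p = 0.0024 with the block and 0.625 without). The ratios of neither gene overlapped between conditions, as was so for 30.4% of all genes tested. The transcription factor gene Pparg had 0.17, -0.23 and -0.00 in isotype mice and 1.88, 1.88 and 1.38 in no-tumor mice (-2.16, adjusted p = 0.00249 with the block and 0.104 without). Of the respiratory chain genes of the mitochondrial genome, mt-Atp6 had 0.24, 0.19 and 0.10 in isotype mice and -0.46, -0.27 and -0.59 in no-tumor mice (0.61, adjusted p = 0.00224 with the block and 0.0865 without). The monocyte and alternative activation gene Chil3 had -1.55, -1.94 and -1.06 in isotype mice and 1.54, 2.87 and 0.20 in no-tumor mice (adjusted p = 0.00455 with the block and 0.229 without), with the populations in opposite order. Fscn1, the actin-bundling protein fascin and a dendritic cell marker, had 7.86, 6.24 and 31.3 CPM in isotype Tim-4low and 6.33, 4.78 and 35.1 CPM in isotype Tim-4high libraries, against 25.8, 8.36 and 8.44 CPM in no-tumor Tim-4low and 127, 89.8 and 84.9 CPM in no-tumor Tim-4high libraries. It was not called without the block (adjusted p = 0.141) and was called with it (adjusted p = 7e-05).

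The third condition, tumor-bearing mice given anti-Tim-4, entered no comparison between conditions here. For the 220 genes with higher ratios, the median log2 ratio of Tim-4low over Tim-4high was -0.03 with anti-Tim-4, against 0.43 with isotype and -0.47 without a tumor. For the 367 genes with lower ratios it was 0.08 with anti-Tim-4, against -0.12 with isotype and 0.75 without a tumor. The isotype and no-tumor medians follow from how the genes were chosen. The anti-Tim-4 libraries were outside that contrast but helped to estimate its spread. A group outside the contrast may lie nearer the median of all genes, which was -0.004 with anti-Tim-4. No conclusion on anti-Tim-4 is drawn from these medians. Single genes varied. Stab1 had a log2 ratio of -1.60 ± 0.37 with anti-Tim-4, against 0.63 ± 0.36 with isotype and -2.22 ± 0.38 without a tumor. Ndnf had 2.14 ± 0.64 with anti-Tim-4, against 1.34 ± 0.52 with isotype and 5.46 ± 0.52 without a tumor. Gm2a had -0.03 ± 0.15 with anti-Tim-4, against -0.70 ± 0.15 with isotype and 1.79 ± 0.16 without a tumor. Whether anti-Tim-4 changed these ratios was not tested here.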
